A study of Mus musculus with 9 samples.

Results

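The genes that write DNA methylation and the TET genes that start its removal were examined in mouse regulatory T cells (Tregs) given interleukin-2 (IL-2). The 7 genes, Dnmt1, Dnmt3a, Dnmt3b, Uhrf1, Tet1, Tet2 and Tet3, were chosen by symbol from the 23992 gene symbols measured. No rule on their values was used, but earlier results of these data were known when they were chosen. The cells came from spleens of BALB/c mice whose Foxp3+ Tregs carry GFP, and had been transduced with hEGFR-oIL-2Rβ, an orthogonal beta chain of the IL-2 receptor tagged with human EGFR. All 9 libraries share this receptor, and in all of them the cells had first been grown for 48 hours with human IL-2 (1000 IU/mL) and CD3/CD28 beads, been isolated on magnets through the tag and spent a night without IL-2. The 3 groups then received ortho IL-2 (orthogonal, 2000000 IU/mL), WT IL-2 (wild type, 20000 IU/mL) or no IL-2 for 4 hours. Each group has 3 libraries of mRNA.

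Ortho IL-2 is an engineered cytokine made to signal through the orthogonal receptor chain. The doses of the 2 cytokines differ, and the cells of the group without IL-2 had themselves been activated and grown in IL-2 before, so none of the groups is a resting Treg. The labels do not name the promoter or vector of the receptor, and since their growth protocol is that of another assay, the culture is given from the treatment protocol. Nothing in the labels says whether a group's 3 libraries stem from separate mice or cultures, so p-values cover the spread between these libraries, which may be technical.

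Cytosine methylation at CpG sites is copied after replication by Dnmt1, which Uhrf1 guides to half-methylated DNA, and is placed on new sites by Dnmt3a and Dnmt3b. The TET enzymes oxidise the methyl group, using 2-oxoglutarate, iron and oxygen, which leads to its loss by dilution at replication or by base excision. In Tregs, stable Foxp3 expression is known to go with a demethylated enhancer (CNS2) within the gene, and mouse Tregs need Tet2 and Tet3 to keep it so. Only mRNA was measured here, not methylation and not protein, and in bulk samples fewer cells of a type and less RNA per cell cannot be told apart.

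The libraries held 21695631 to 58182835 reads in genes with ortho IL-2, 31912919 to 38797874 with WT IL-2 and 16581624 to 30213895 without IL-2. Of the 10 T cell and Treg markers listed, 9 are in the tables and all of these were expressed; Foxp3 averaged 899.0 ± 99.5, 849.2 ± 161 and 523.7 ± 9.58 CPM (read counts scaled to a common library size) with ortho IL-2, WT IL-2 and no IL-2 (SD, n = 3 each). Summed markers of B cells lay at 4.42 to 4.87, 3.75 to 4.55 and 4.25 to 5.04 CPM in these groups, and 1 of their 5 genes (Cd79b) passed the expression filter. Summed myeloid markers, of which 6 of 7 are in the tables and 1 (Itgam) passed, lay at 8.54 to 8.63, 7.44 to 9.43 and 11.1 to 13.7 CPM. Those of CD8 T and NK cells, 1 of 4 expressed (Cd8b1), lay at 10.4 to 11.4, 9.72 to 11.4 and 7.96 to 8.94 CPM. Those of erythroid and stromal cells lay at 217.3 to 227.4, 220.8 to 225.3 and 277.9 to 291.5 CPM, nearly all from Pecam1 (219.7, 220.2 and 283.8 CPM), the 1 of 5 that passed. None of these markers was at 0 over all libraries, and the part of these other lists in the results was not tested.

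All 7 genes were expressed. The deposited RPKM, which divides reads by transcript length and library depth, allows their levels to be set in order. With ortho IL-2 the order was Dnmt1 (24.3 ± 0.806 RPKM), Tet2 (17.9 ± 0.756), Uhrf1 (14.7 ± 1.19), Tet3 (12.9 ± 0.680), Dnmt3a (7.40 ± 0.241), Dnmt3b (1.73 ± 0.104) and Tet1 (0.948 ± 0.0768), and no neighbours overlapped between their libraries (SD, n = 3). With WT IL-2 the order of RPKM was the same, but Uhrf1 and Tet3 overlapped (13.9 ± 1.21 and 12.2 ± 0.537 RPKM). Without IL-2 the order was Dnmt1 (17.4 ± 0.560 RPKM), Tet2 (16.8 ± 0.937), Tet3 (13.1 ± 0.515), Uhrf1 (9.85 ± 0.882), Dnmt3a (5.79 ± 0.338), Dnmt3b (1.04 ± 0.173) and Tet1 (0.982 ± 0.0445). There Dnmt1 overlapped with Tet2, and Dnmt3b with Tet1. Dnmt1 and Tet2 thus led their families in each group, and Tet1 was the lowest by RPKM in each. Tet1 reached an RPKM of 1 in just 3 of 9 libraries, the fewest that let a gene be tested, and Dnmt3b in 8.

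Changes between groups were tested on the read counts, scaled by the trimmed mean of M values (TMM), which takes most genes as unchanged. edgeR's quasi-likelihood test was run over the 10702 genes that reached an RPKM of 1 in 3 or more libraries, with Benjamini-Hochberg adjustment over all of them, and an adjusted p under 0.05 counts as a call. With ortho IL-2 against no IL-2, 6 of the 7 genes were called, 3 higher and 3 lower, where 56.0% of all genes tested were called (28.5% higher and 27.4% lower). With WT IL-2 against no IL-2, 4 of the 7 were called, 3 higher and 1 lower, where 47.9% of all genes were (25.0% higher and 22.9% lower). At an unadjusted p under 0.05 these counts are 6 (61.3% of all genes) and 5 (55.1%). Groups did not overlap in CPM for 3 of the 7 on the higher side (33.9% of all genes) and 3 on the lower (32.2%) with ortho IL-2, and for 3 higher (30.3%) and 2 lower (28.5%) with WT IL-2. Calls were thus common among all expressed genes, and the counts for the 7 are read against these shares. Both comparisons use the same 3 libraries without IL-2, so their likeness is not independent support.

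**Figure D1:**
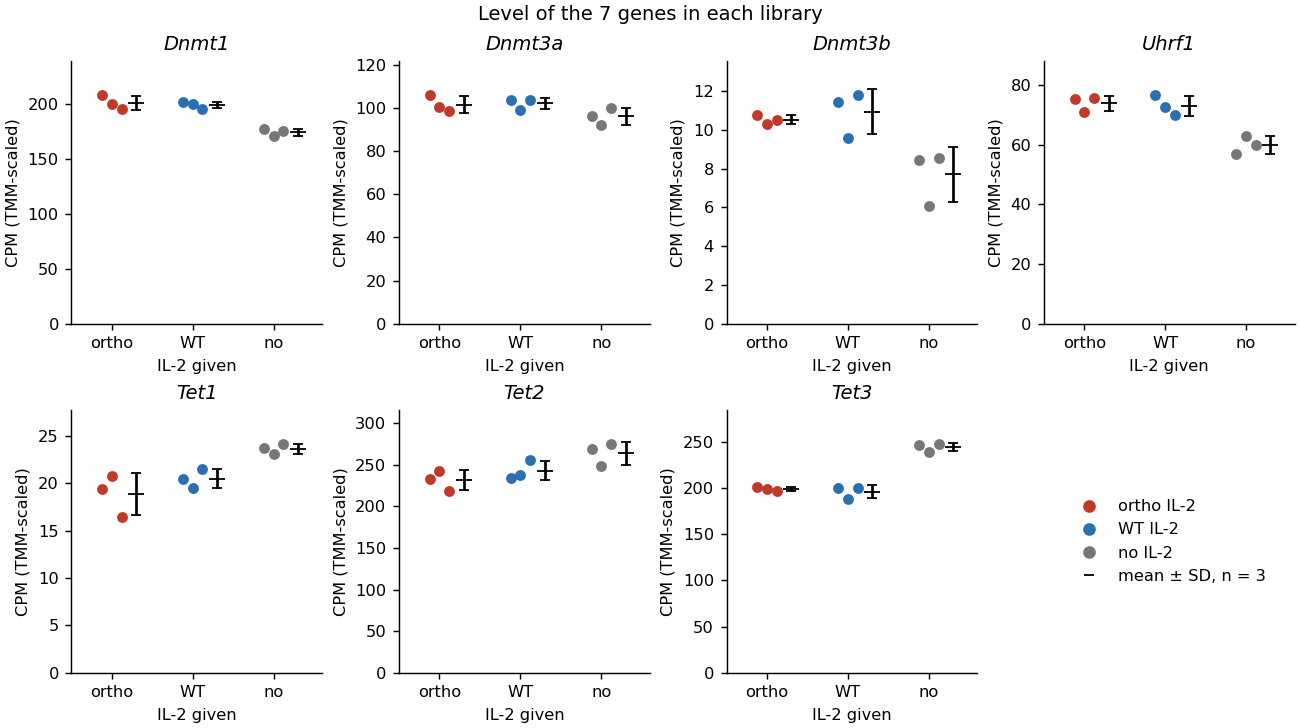
Level of each gene in every library in TMM-scaled CPM, with the mean and SD of 3 libraries; the axes start at 0 and differ between genes. Dnmt1, Uhrf1 and Dnmt3b lie higher with ortho or WT IL-2 than without IL-2, Tet3 lies lower, and the points of Dnmt3a overlap.

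Dnmt1, the maintenance methyltransferase, lies on chromosome 9 at chr9:20907209-20959888 on the minus strand (GRCm38, the mm10 build). It stood at 208.0, 200.5 and 195.2 CPM with ortho IL-2, at 201.5, 199.8 and 195.7 CPM with WT IL-2, and at 176.9, 170.7 and 175.1 CPM without IL-2. Every stimulated library was above every library without IL-2. Dnmt1 was 15.5% higher with ortho IL-2 (log2 fold change 0.21, SE 0.04, edgeR adjusted p = 0.00196) and 14.2% higher with WT IL-2 (0.19, SE 0.04, adjusted p = 0.00343). The call depended on a correction for base composition: with offsets for GC content per library it was 0.06 and 0.10 on the log2 scale and no longer called (adjusted p = 0.363 and 0.137). The Dnmt1 transcript has 54.7% GC, against a median of 49.99% over the genes tested.

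Uhrf1, the reader of half-methylated DNA that brings Dnmt1 to replicated sites, lies at chr17:56303321-56323486 on the plus strand. It had 75.2, 70.8 and 75.6 CPM with ortho IL-2, 76.5, 72.5 and 70.0 CPM with WT IL-2, and 57.03, 62.9 and 59.9 CPM without IL-2. The stimulated libraries again lay above all 3 without IL-2. Uhrf1 rose by 23.3% with ortho IL-2 (log2 fold change 0.30, SE 0.06, edgeR adjusted p = 0.00127) and by 21.9% with WT IL-2 (0.29, SE 0.06, adjusted p = 0.00198). With GC offsets the log2 change was 0.18 and 0.21, still called (edgeR adjusted p = 0.00216 and 0.000903).

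Dnmt3a, a de novo methyltransferase, lies at chr12:3806007-3914443 on the plus strand. Its libraries held 105.9, 100.4 and 98.5 CPM with ortho IL-2, 103.6, 99.3 and 103.8 CPM with WT IL-2, and 96.2, 92.1 and 100.1 CPM without IL-2. The groups overlapped in CPM, and neither difference was called, at log2 values of 0.08 (SE 0.05, edgeR adjusted p = 0.184) and 0.09 (SE 0.05, adjusted p = 0.155). Their 95% intervals were -0.03 to 0.19 with ortho IL-2 and -0.02 to 0.20 with WT IL-2. On the deposited RPKM scale the groups did not overlap. Dnmt3a makes a long and a short protein from separate start sites, and the longest of its 3 transcripts in the tables has 822 bases more than the shortest. Reads counted for the longest beyond those of the shortest were 6.78 ± 0.299%, 6.80 ± 0.631% and 6.60 ± 0.818% of the gene's reads with ortho IL-2, WT IL-2 and no IL-2 (SD, n = 3), a spread that overlaps between the groups.

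Dnmt3b, the other de novo enzyme, best known from early embryos, lies at chr2:153649450-153687730 on the plus strand. It had 10.8, 10.3 and 10.5 CPM with ortho IL-2, 11.5, 9.60 and 11.8 CPM with WT IL-2, and 8.44, 6.09 and 8.56 CPM without IL-2, from 140 to 626 reads in a library. No stimulated library fell into the range of those without IL-2. The rise was 37.4% with ortho IL-2 (log2 fold change 0.46, SE 0.14, edgeR adjusted p = 0.0163) and 42.8% with WT IL-2 (0.51, SE 0.13, adjusted p = 0.0107), by fold the widest rise of the 7 genes and the one with the widest error. With GC offsets it was 0.36 and 0.45 on the log2 scale and still called.

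Of the TET genes, all 3 were called lower with ortho IL-2 and Tet3 alone with WT IL-2 on the TMM scale. Tet3 lies at chr6:83362373-83459084 on the minus strand. It had 201.2, 198.5 and 196.8 CPM with ortho IL-2, 200.2, 187.9 and 200.3 CPM with WT IL-2, and 246.2, 239.1 and 247.2 CPM without IL-2. The gap between the stimulated libraries and those without IL-2 was wider than the spread within any group. Tet3 fell by 18.5% with ortho IL-2 (log2 fold change -0.30, SE 0.04, edgeR adjusted p = 0.000232) and by 19.7% with WT IL-2 (-0.32, SE 0.04, adjusted p = 0.000161). With GC offsets the log2 change was -0.41 and -0.39.

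Tet2, at chr3:133463679-133545139 on the minus strand, held the most TET reads. It had 232.9, 242.3 and 218.6 CPM with ortho IL-2, 234.3, 237.9 and 255.6 CPM with WT IL-2, and 268.4, 248.0 and 274.4 CPM without IL-2. The ortho IL-2 libraries lay below all those without IL-2, while those with WT IL-2 overlapped with them. Tet2 fell by 12.3% with ortho IL-2 (log2 fold change -0.19, SE 0.06, edgeR adjusted p = 0.0199), and with WT IL-2 the difference was not called (-0.12, SE 0.06, adjusted p = 0.116). The call with ortho IL-2 was lost without its replicate 3 (log2 fold change -0.15, edgeR adjusted p = 0.0704), without no IL-2 replicate 1 (-0.18, 0.0703) or without no IL-2 replicate 3 (-0.16, 0.0750).

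Tet1, which carries a CXXC domain that binds CpG, lies at chr10:62804570-62908996 on the minus strand and was scarce. It had 19.4, 20.8 and 16.4 CPM with ortho IL-2, 20.4, 19.5 and 21.5 CPM with WT IL-2, and 23.7, 23.0 and 24.1 CPM without IL-2. All 6 stimulated libraries lay below the 3 without IL-2. Tet1 fell by 20.3% with ortho IL-2 (log2 fold change -0.33, SE 0.09, edgeR adjusted p = 0.0111), and the difference with WT IL-2 was not called (-0.20, SE 0.09, adjusted p = 0.0820). It was called without ortho IL-2 replicate 3, a library that enters the shared estimate of the spread (log2 fold change -0.20, edgeR adjusted p = 0.0321). With GC offsets Tet1 was at -0.19 and -0.11 and Tet2 at -0.08 and -0.06, none of them called. These 2 transcripts have 43.7% and 45.4% GC, below the median of the genes tested. That ortho IL-2 passed the threshold for Tet1 and Tet2 and WT IL-2 did not is no difference between the cytokines, whose direct comparison is given further on.

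Without IL-2 more of each library fell outside the counted transcripts, and this moves with the result. The share of the RPKM depth outside genes was 29.4 ± 3.64% with ortho IL-2, 31.7 ± 2.96% with WT IL-2 and 40.5 ± 2.43% without IL-2 (SD, n = 3 each). RPKM is divided by a depth that includes those reads, so on its scale the median gene was 0.29 higher with ortho IL-2 and 0.22 higher with WT IL-2 (log2), and 85.8% and 83.8% of the calls were higher, against 51.0% and 52.2% on the TMM scale. On that scale no TET gene was called: Tet3 was at -0.02 and -0.10, Tet2 at 0.09 and 0.09, and Tet1 at -0.05 and 0.01 with ortho and WT IL-2. The writers were then called higher throughout, Dnmt1 at 0.48 and 0.41, Uhrf1 at 0.58 and 0.50, Dnmt3a at 0.36 and 0.30, and Dnmt3b at 0.74 and 0.73. A called rise was common on that scale, at 53.3% of all genes with ortho IL-2 and 43.3% with WT IL-2. A called fall was rare, at 8.84% and 8.36%. Against the median gene of that scale (0.29 and 0.22), the TET genes were lower and Dnmt1, Uhrf1 and Dnmt3b higher. Dnmt3a (SE 0.07 with either cytokine) was near it. Taking the median gene as unchanged is much what TMM does, so this is no separate support for the TMM result. Less TET mRNA and more of the other counted mRNAs cannot be told apart in these data. With that share as a covariate, which does not overlap between the stimulated libraries and those without IL-2, none of the 7 genes was called with ortho IL-2, and Dnmt3b (0.76) and Tet3 (-0.25) were called with WT IL-2.

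**Figure D2:**
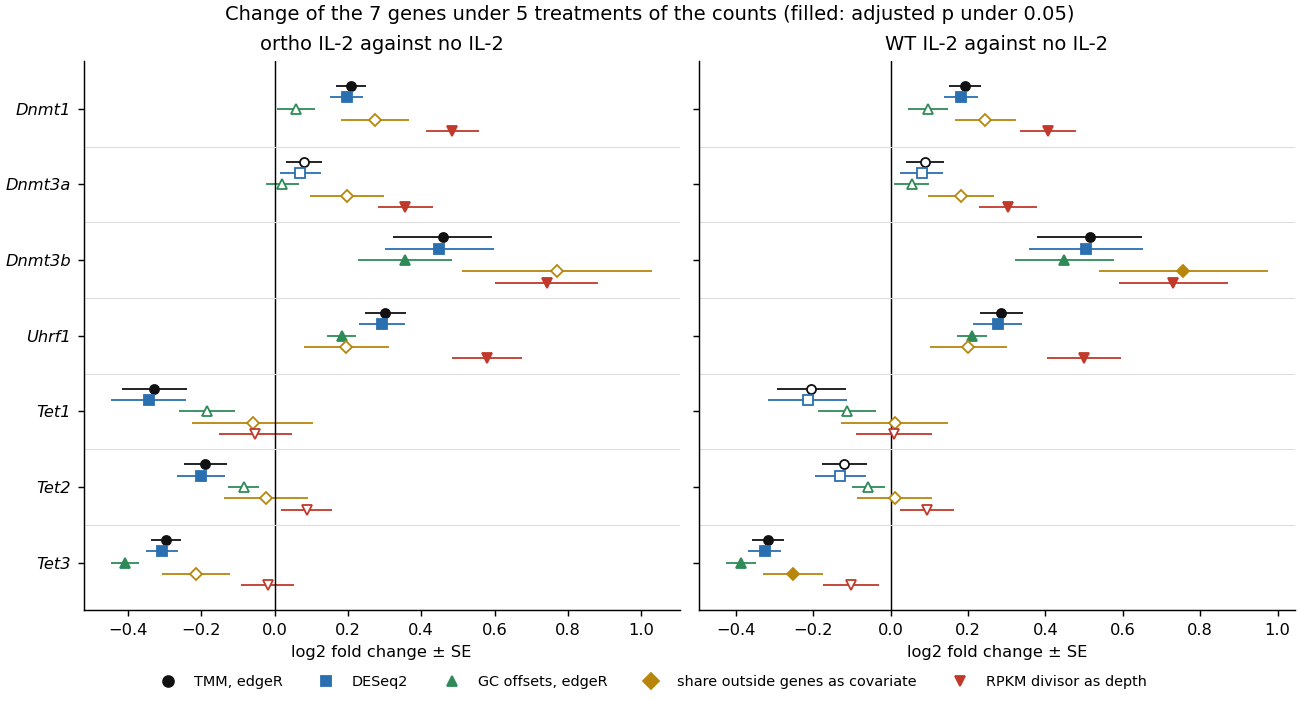
Log2 fold change ± SE of each gene with ortho IL-2 (left) and WT IL-2 (right) against no IL-2 under 5 treatments of the counts, with filled markers for an adjusted p under 0.05. Uhrf1 and Dnmt3b stay right of 0 and called with GC offsets, Dnmt1 does not stay called, and the TET genes move to about 0 with the RPKM divisor as depth.

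Ratios between 2 of the genes within a library do not depend on that scaling. Summed TET over summed Dnmt RPKM was 0.927, 0.984 and 0.940 with ortho IL-2, 0.952, 0.959 and 1.02 with WT IL-2, and 1.28, 1.27 and 1.29 without IL-2. On this uncorrected RPKM, TET and Dnmt mRNA per length were near parity after either cytokine and TET stood above Dnmt without it, with no overlap. Single genes often separated too, 33.9% higher and 32.2% lower with ortho IL-2, and 30.3% and 28.5% with WT IL-2. The ratio mostly sets genes already seen to fall over genes already seen to rise, so its separation is no independent support. GC offsets were not applied to these sums. Tet2 and Dnmt1 supply most of them, and the difference between the changes of that pair shrank with GC offsets, as given below. Tet3 over Dnmt1, a pair picked after the values were seen, was 0.521 to 0.543 with ortho IL-2, 0.507 to 0.551 with WT IL-2 and 0.750 to 0.761 without IL-2. The difference between the log2 changes of Tet3 and Dnmt1 was -0.50 with ortho IL-2 and -0.51 with WT IL-2, and ranged from -0.52 to -0.46 and from -0.54 to -0.48 over the alternatives. The Tet2 and Dnmt1 changes differed by -0.40 and -0.31, which dropped to -0.14 and -0.15 with GC offsets.

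Of 4 pairs tested within the families, Dnmt3b over Dnmt3a was 0.229 to 0.241 with ortho IL-2, 0.218 to 0.256 with WT IL-2 and 0.149 to 0.197 without IL-2. Across the 6 stimulated and the 3 unstimulated libraries this pair differed by 0.41 on the log2 scale (two-sided exact permutation p = 0.0238, the smallest this design can give; Benjamini-Hochberg 0.0317 over 4 pairs). Tet3 over Tet2 was lower after IL-2, at 0.690 to 0.758, 0.659 to 0.719 and 0.758 to 0.811 with ortho IL-2, WT IL-2 and no IL-2 (6 against 3 libraries, difference -0.15, exact permutation p = 0.0238, adjusted 0.0317). Its size moved with GC offsets: the Tet3 and Tet2 changes differed by -0.11 with ortho IL-2 and -0.20 with WT IL-2 in the edgeR fit, and by -0.32 and -0.33 with GC offsets. The highest ortho IL-2 library and the lowest without IL-2 nearly touched. Tet1 over Tet2 was 0.0490 to 0.0559, 0.0533 to 0.0568 and 0.0572 to 0.0605 (difference -0.11, exact permutation p = 0.0238, adjusted 0.0317). Here the highest WT IL-2 library and the lowest without IL-2 nearly touched, and Tet1 lay at about 1 RPKM. This pair was not compared with GC offsets, under which neither gene was called. Uhrf1 over Dnmt1 overlapped, at 0.582 to 0.637, 0.589 to 0.625 and 0.531 to 0.606 (difference 0.09, exact permutation p = 0.119). With 3 libraries against 3 the smallest p is 0.1. How often other gene pairs separate in the same way was not computed, so these p-values have no background. Dnmt1 supplied 72.7 ± 0.169%, 72.2 ± 0.965% and 71.8 ± 0.964% of the summed Dnmt RPKM, and Tet2 supplied 56.3 ± 0.984%, 57.6 ± 1.14% and 54.4 ± 0.860% of the summed TET RPKM, in the groups with ortho IL-2, WT IL-2 and no IL-2 (SD, n = 3).

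**Figure D3:**
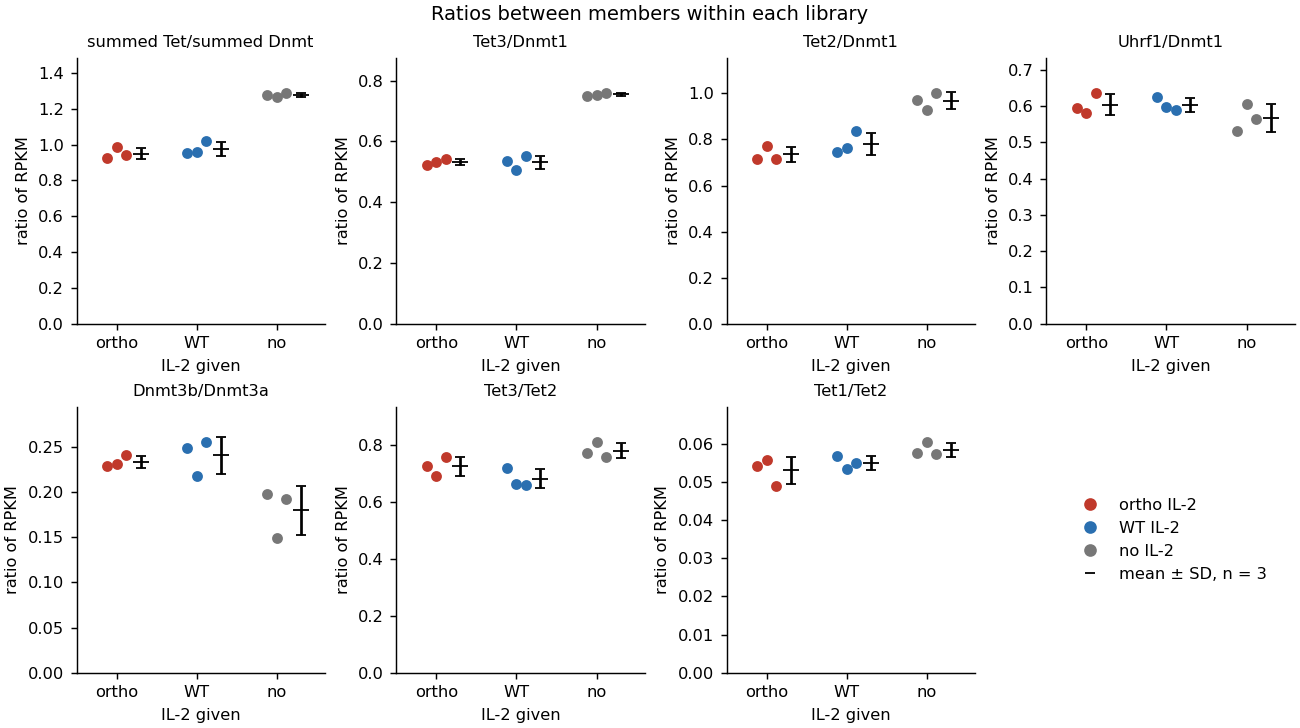
Ratios of RPKM between the genes within each library, with the mean and SD of 3 libraries; each axis starts at 0. Summed TET over summed Dnmt and Tet3 over Dnmt1 lie lower in the 6 stimulated libraries than in the 3 without IL-2, and Uhrf1 over Dnmt1 overlaps.

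Between ortho IL-2 and WT IL-2, which were given at different doses, no difference of the 7 genes was detected. None of the 7 was called, where 0.00% of all genes were called (0 of 10702; 149 at an unadjusted p under 0.05, which is 1.39%, and 0 by DESeq2). Their CPM overlapped in each case, where 2.42% of all genes were higher and 2.23% lower without overlap. Their edgeR adjusted p ran from 0.909 to 0.966. The 95% interval of the log2 difference, ortho IL-2 over WT IL-2, was -0.07 to 0.11 for Dnmt1, -0.10 to 0.14 for Uhrf1, -0.12 to 0.10 for Dnmt3a and -0.35 to 0.24 for Dnmt3b. It was -0.32 to 0.07 for Tet1, -0.20 to 0.06 for Tet2 and -0.07 to 0.11 for Tet3. Differences of the sizes inside these intervals are not shown to be absent. The interval of Dnmt3b, counted from the fewest reads, was the widest.

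**Figure D4:**
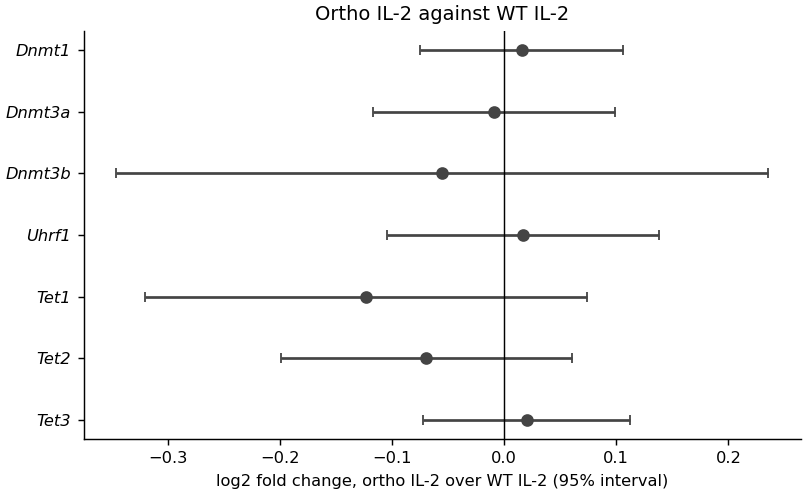
Log2 fold change of each gene with ortho IL-2 over WT IL-2, with its 95% interval from the edgeR fit. Every interval holds 0, and those of Dnmt3b and Tet1, the 2 genes with the fewest reads, are the widest.

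Windows at annotated start sites of 4 of the genes that moved are shown because Dnmt1 and Uhrf1 rose together and Tet3 fell. RefSeq (GRCm38.p6) gives start sites for all 7 genes, and for each the window with the most CpG is used, of 250 bases before and 50 after the start. A window picked by CpG need not be at the start of the transcript measured. Those of Dnmt1, Uhrf1 and Tet3 lie inside the gene positions given above, and that of Dnmt3b mostly before its gene. The windows are chr9:20952574-20952873 on the minus strand for Dnmt1, chr17:56304063-56304362 on the plus strand for Uhrf1, chr2:153649199-153649498 on the plus strand for Dnmt3b and chr6:83441629-83441928 on the minus strand for Tet3. Capitals mark letters of the E2F motif, searched on both strands as TTTGGCGC, TTTCCCGC, TTTGCCGC or TTTCGCGC, the site of factors that act on genes of DNA replication.
Dnmt1: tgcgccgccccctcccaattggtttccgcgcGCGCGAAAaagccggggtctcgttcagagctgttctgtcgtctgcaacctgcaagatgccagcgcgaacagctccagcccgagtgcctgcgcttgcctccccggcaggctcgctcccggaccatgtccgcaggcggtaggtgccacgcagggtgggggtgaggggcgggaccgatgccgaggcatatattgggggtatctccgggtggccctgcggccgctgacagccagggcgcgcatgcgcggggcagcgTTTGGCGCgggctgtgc
Uhrf1: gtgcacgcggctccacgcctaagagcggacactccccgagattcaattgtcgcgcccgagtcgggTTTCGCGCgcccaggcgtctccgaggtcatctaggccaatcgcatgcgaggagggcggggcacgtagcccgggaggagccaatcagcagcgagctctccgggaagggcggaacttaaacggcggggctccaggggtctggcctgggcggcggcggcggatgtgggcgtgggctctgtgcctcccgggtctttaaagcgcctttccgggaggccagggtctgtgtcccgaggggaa
Dnmt3b: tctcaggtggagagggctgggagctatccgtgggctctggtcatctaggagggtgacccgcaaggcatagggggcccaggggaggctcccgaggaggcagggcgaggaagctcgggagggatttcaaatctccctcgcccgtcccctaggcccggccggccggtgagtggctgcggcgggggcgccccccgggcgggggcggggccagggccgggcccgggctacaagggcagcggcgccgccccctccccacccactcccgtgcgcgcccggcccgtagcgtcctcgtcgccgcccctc
Tet3: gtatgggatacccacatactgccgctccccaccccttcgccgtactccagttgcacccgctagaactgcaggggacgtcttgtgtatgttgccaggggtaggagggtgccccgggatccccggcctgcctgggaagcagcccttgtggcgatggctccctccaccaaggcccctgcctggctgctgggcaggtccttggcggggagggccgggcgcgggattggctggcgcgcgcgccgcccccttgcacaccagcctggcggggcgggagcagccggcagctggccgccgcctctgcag
These windows hold 33, 33, 30 and 22 CpG, and the median over 32851 RefSeq windows is 7. Those of Dnmt3a, Tet1 and Tet2 hold 47, 17 and 57. In the window used, Dnmt1 has the E2F letters at 219 bases before the start (GCGCGAAA) and again at 33 bases after it (TTTGGCGC). Uhrf1 has them at 185 bases before the start of its window (TTTCGCGC). Both genes have other start sites, whose windows hold 12 and 2 CpG for Dnmt1 and 12 for Uhrf1. None of those windows has the E2F letters. These other starts lie upstream of the windows used, so the E2F letters shown fall inside each gene as counted from them. The windows used for the other 5 genes have none, and 2.26% of all windows have at least 1. That share and the median of 7 CpG are over all RefSeq windows, not over the window with the most CpG per gene. Each E2F form holds a CpG, and the letters were chosen after the sequences were seen, so the share is no test of these matches. Neither the STAT letters TTCNNNGAA (8.30% of all windows) nor the E-box CACGTG (7.15%), searched on both strands, are in any of the 7 windows. At another Dnmt3a start site the window has 1 E-box. A match is a description of these letters only.

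The genes around the methylation cycle were read in 7 lists, whose counts stand beside 28.5% of all genes higher and 27.4% lower with ortho IL-2, and 25.0% and 22.9% with WT IL-2. With the RPKM divisor as depth these shares were 53.3% and 8.84% with ortho IL-2, and 43.3% and 8.36% with WT IL-2, and with the share outside genes as a covariate 8.64% and 6.05%, and 11.4% and 8.53%. Among the partners of the methyltransferases, 15 of 19 were tested, and with ortho IL-2 4 were higher and 3 lower, and 4 and 2 with WT IL-2, with a median log2 change of 0.13 and 0.09 beside 0.01 and 0.01 over all genes. Cdca7, the partner of the remodeller Hells, averaged 41.8, 43.6 and 27.4 CPM with ortho IL-2, WT IL-2 and no IL-2 (log2 0.61 and 0.67, edgeR adjusted p = 1.29e-05 and 6.80e-06). The deacetylase gene Hdac1 had 177.4, 171.7 and 137.7 CPM (0.36 and 0.32). Trim28, a corepressor that protects imprinted methylation, had 167.5, 157.6 and 123.1 CPM (0.45 and 0.36). Uhrf2, the relative of Uhrf1, went the other way at 255.8, 260.2 and 311.5 CPM (-0.29 and -0.26), though not with the RPKM divisor as depth (-0.01 and -0.05), where 11 of these 15 partners were called higher with ortho IL-2 and none lower. With the covariate Uhrf2 (-0.22 and -0.21) and Trim28 (0.29 and 0.24) lost their calls with both cytokines.

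All 11 readers of methylated CpG were tested. With ortho IL-2, 3 were higher and 5 lower, and with WT IL-2, 3 and 4 (median log2 0.02 and -0.06). Zbtb38, a zinc-finger reader, had 80.7, 79.8 and 119.9 CPM with ortho IL-2, WT IL-2 and no IL-2 (log2 -0.57 and -0.59). Mbd3, a subunit of the NuRD complex, had 32.4, 29.3 and 19.8 CPM (0.71 and 0.57). Mbd4, a reader that is also a DNA glycosylase, had 26.4, 30.7 and 55.6 CPM (-1.08 and -0.87), which became 0.06 and 0.03 with the share outside genes as a covariate. With the RPKM divisor as depth, 6 readers were called higher and 2 lower with ortho IL-2, and with the covariate 0 and 1, where Mbd3 (0.68 and 0.54) lost its calls.

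For the removal of oxidised bases and the partners of TET, 16 of 18 genes were tested, and 4 were higher and 7 lower with either cytokine (median log2 0.03 and -0.00). With the RPKM divisor as depth the balance turned, to 9 higher and 4 lower with ortho IL-2 and 5 and 4 with WT IL-2. Neil1, a glycosylase of base excision, stood at 20.6, 19.4 and 41.4 CPM with ortho IL-2, WT IL-2 and no IL-2 (log2 -1.002 and -1.09). Its relative Neil2 stood at 3.02, 2.89 and 5.77 CPM (-0.94 and -0.99). The stress gene Gadd45a fell to 8.02 and 8.79 CPM, against 16.2 CPM without IL-2 (-1.02 and -0.89), while its relative Gadd45g rose to 30.1 and 27.1 CPM, against 9.46 CPM (1.67 and 1.52). These 4 kept their direction and their call in every alternative tried.

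The S-adenosylmethionine cycle, which makes the methyl donor of the Dnmt enzymes, had 8 of 13 tested genes higher and 2 lower with ortho IL-2, and 8 and 3 with WT IL-2, with a median log2 change of 0.39 and 0.36. With the RPKM divisor as depth 8 were higher and none lower with either cytokine, and with the covariate 5 and 6 were higher and none lower. Slc7a5, a subunit of a transporter of large neutral amino acids such as methionine, had 69.7, 69.5 and 21.0 CPM with ortho IL-2, WT IL-2 and no IL-2 (log2 1.74 and 1.73). Mat2a, the synthase of S-adenosylmethionine, had 188.1, 190.5 and 95.4 CPM (0.98 and 1.00, edgeR adjusted p = 1.46e-07 and 1.22e-07). Ahcyl2, a relative of the hydrolase that clears S-adenosylhomocysteine, had 922.1, 957.0 and 342.3 CPM (1.43 and 1.48). Mthfd1, of the folate cycle, had 27.5, 26.5 and 11.3 CPM (1.29 and 1.24). Each of these 4 changes was larger than that of any of the 7 genes and was called in every alternative tried.

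For the supply of 2-oxoglutarate and vitamin C to TET, 6 of 16 tested genes were called higher and 2 lower with ortho IL-2, and 5 and 3 with WT IL-2 (median log2 0.09 and 0.09). With ortho IL-2 the count was 12 higher and 0 lower with the RPKM divisor as depth, and 1 and 0 with the covariate. The aminotransferase gene Gpt2, whose enzyme can make 2-oxoglutarate from glutamate, had 9.90, 9.61 and 3.30 CPM with ortho IL-2, WT IL-2 and no IL-2 (log2 1.58 and 1.53). Got1, another aminotransferase gene, had 54.1, 52.1 and 70.7 CPM (-0.39 and -0.44), and with ortho IL-2 it was not called with the RPKM divisor (-0.11) or the covariate (-0.39). Fh1 (0.33 and 0.30) and Sdhb (0.34 and 0.31), genes of enzymes that remove the TET inhibitors fumarate and succinate, were called higher with ortho and WT IL-2, but not with the covariate (Fh1 0.19 and 0.19, Sdhb 0.17 and 0.18).

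Of 32 replication genes of S phase, when Dnmt1 and Uhrf1 are known to be used, with ortho IL-2 6 were higher and 5 lower, and 6 and 4 with WT IL-2, with a median of -0.00 and -0.01, both counts below the shares of all genes. The helicase gene Mcm2 (0.40 and 0.31) and the polymerase gene Pold1 (0.71 and 0.53) were higher, and the helicase genes Mcm6 (-0.36 and -0.33) and Mcm4 (-0.25 and -0.22) lower, with ortho and WT IL-2. With the RPKM divisor as depth Mcm6 was at -0.08 and -0.12 and Mcm4 at 0.03 and -0.01, and 19 of the 32 were called higher and 1 lower with ortho IL-2, where 53.3% of all genes were higher. The rise of Pold1 with WT IL-2 lost its call without WT IL-2 replicate 1, no IL-2 replicate 2 or no IL-2 replicate 3 (edgeR adjusted p = 0.0643, 0.0638 and 0.0747). With the covariate Pold1 (0.61 and 0.45) and Mcm2 (0.33 and 0.25) lost their calls with both cytokines, and Mcm4 (-0.33) with ortho IL-2.

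All 6 genes listed for regions that lose methylation through TET in Tregs were called, 4 higher and 2 lower with either cytokine. Il2ra, the IL-2 receptor alpha chain, averaged 4845 ± 221, 4994 ± 145 and 1217 ± 9.73 CPM with ortho IL-2, WT IL-2 and no IL-2 (SD, n = 3; log2 1.99 and 2.04, edgeR adjusted p = 3.09e-09 and 2.69e-09). Tnfrsf18 (GITR, 1.20 and 1.09), the Ikaros-family gene Ikzf4 (0.85 and 0.84) and Foxp3 (0.78 and 0.70) also rose. Ctla4, an inhibitory receptor gene, was lower (-0.53 and -0.51), as was Ikzf2, which encodes Helios (-0.35 and -0.29). With the covariate Foxp3 (0.55 and 0.52) and Ikzf2 (-0.09 and -0.09) lost their calls with both cytokines, and Ikzf2 also with the RPKM divisor as depth (-0.08 and -0.08). The Ikzf2 call with WT IL-2 was also lost without WT IL-2 replicate 1 (-0.22) or no IL-2 replicate 1 (-0.28). Several of these genes are known targets of IL-2 signalling itself, and these values say nothing of their methylation. No gene of the 7 lists was called between ortho IL-2 and WT IL-2.

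**Figure D5:**
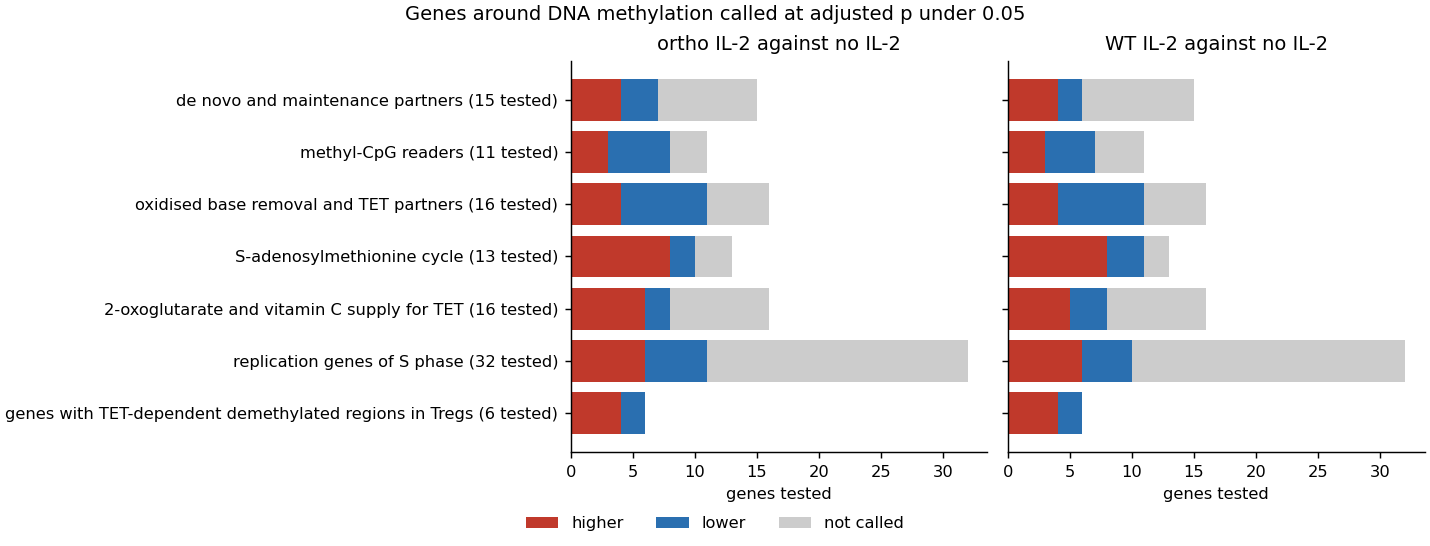
Number of genes tested in each of the 7 lists, split by call at an adjusted p under 0.05, with ortho IL-2 (left) and WT IL-2 (right) against no IL-2. The S-adenosylmethionine cycle has 8 of 13 genes higher, and most of the 32 replication genes were not called.

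For each gene, those with the most similar log2 CPM over the 9 libraries were found by Pearson's r, given as a description, since the 9 libraries share the split by IL-2 and with it much of any r. Tet3 was most like Mturn (r = 0.996), Trio and Man2a2, and 1155 genes had an r of at least 0.9 with it. Uhrf1 was most like Slc1a5 (0.997), Gorasp2 and Txnl4a, with 1536 such genes, and Dnmt1 most like Suv39h1 (0.986), Myadm and Sf3a1, with 1293. Tet1 was most like Cdyl2 (0.990) and Fam120c, with 128 such genes. Tet2 was most like Utp23 (0.987), Golgb1 and Zcchc4, with 198, and Dnmt3b most like Usp49 (0.988), Scaf4 and Nf2, with 60. Dnmt3a had 3 such genes in all, Huwe1 (0.930), AI414108 and Dnah8.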

How the data were processed

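Messenger RNA of 9 libraries (3 groups of 3) was sequenced on an Illumina instrument after mRNA library preparation, per the labels' protocols. Each deposited table lists raw read counts and RPKM per RefSeq transcript, per the file headers. Each deposited RPKM value is the count divided by transcript length and by 1 depth per library, which includes reads outside the transcripts taken here. The submitters' processing notes name bedtools 2.25.0, SAMtools 0.1.8, TopHat2, Bowtie2, edgeR and the mm10 build. What each did, and whether strand was used in counting, is not given in the sources used here. Without strand, reads of an overlapping antisense gene cannot be told apart; of the genes overlapping the 7, those in the tables hold 10 or fewer reads over all libraries, and those overlapping Dnmt3b, Tet1 and Tet2, and 1 of the 3 overlapping Tet3, are not in them, so these values are uncertain to that extent. Uhrf1 overlaps no other gene.

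For each symbol the transcript with the most reads over the 9 libraries was taken. The test was edgeR 4.0.16 (R 4.3.3), the quasi-likelihood fit with TMM over all 9 libraries; DESeq2 1.42.0, limma 3.58.1 on log2(RPKM + 1) and log2(RPKM + 0.1), and other alternatives were tried. GC offsets came from a lowess fit (span 0.3) on 10657 genes (99.58%) with a known GC content. Ratios were tested with scipy 1.17.1. The script was tested on simulated data. SEs were derived from the p-values and degrees of freedom of the fit. The rule for named genes took the 7 genes, in each list up to 4 tested genes with the smallest p with ortho IL-2 against no IL-2, and for likeness the 3 genes with the highest r of log2 CPM (prior count 2), of which 1 is not reported here; Foxp3 and Ikzf2 were added as the rest of a list of 6. Gene positions are from GENCODE on GRCm38. The genes and lists were chosen with earlier results of these data known, and the motif letters after the sequences were seen.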

Additional observations from a re-analysis of the deposited data

How the results depend on the processing

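The 7 genes were refitted under 22 alternatives for each comparison: other scalings, units, filters and transcripts, a covariate, GC offsets, a replicate block, DESeq2, the compared groups alone, and each of the 9 libraries left out. Leaving out a library changed 2 of their calls against no IL-2: Tet2 with ortho IL-2 was lost in 3 of the 9 refits (log2 range -0.23 to -0.15 over all 9) and Tet1 with WT IL-2 was gained in 1 (range -0.24 to -0.17), so that 2 genes rather than 1 were called lower with WT IL-2 (range 1 to 2). Fitting the compared groups alone also called Tet1 with WT IL-2 (-0.20, 2 genes lower).

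With the share outside genes as a covariate, 1573 genes were called with ortho IL-2 and 2130 with WT IL-2, against 5990 and 5122. With ortho IL-2 none of the 7 was called (0 higher, 0 lower): Dnmt1 0.27, Dnmt3b 0.77, Uhrf1 0.20, Tet1 -0.059, Tet2 -0.024 and Tet3 -0.21. With WT IL-2, 2 were called (1 higher), and Dnmt1 (0.24) and Uhrf1 (0.20) were not. Mbd4 changed sign there (0.057 and 0.031). With GC offsets 3 of the 7 were called with ortho IL-2 (1 lower), where 30.2% of all genes were called higher and 29.8% lower. Dnmt1 (0.057), Tet1 (-0.19, edgeR adjusted p = 0.0545) and Tet2 (-0.084) lost their calls there. With WT IL-2, where these shares were 29.6% and 27.8%, Dnmt1 (0.10) lost its call. GC offsets with the replicate block gave the same counts of the 7 with ortho IL-2 (3, 1 lower), where 29.2% of all genes were higher and 28.9% lower. The values were the same too (0.057, -0.19 and -0.084, and 0.10 with WT IL-2).

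With the RPKM divisor as depth 0 TET genes were called lower, and limma on log2(RPKM + 1) and log2(RPKM + 0.1) also gave 0, with either cytokine. The shares of all genes called lower were 8.84%, 8.62% and 8.54% with ortho IL-2, and 8.36%, 8.10% and 7.84% with WT IL-2. In these 3 fits the ortho IL-2 values were Tet1 -0.053, -0.026 and -0.048, Tet2 0.087, 0.083 and 0.087 (the sign turned), Tet3 -0.018, -0.018 and -0.019, and Dnmt3a 0.36, 0.31 and 0.35 (now called), and Mcm4 turned to 0.032, 0.030 and 0.031. With WT IL-2 they were Tet3 -0.10, -0.10 and -0.10 and Dnmt3a 0.30, 0.26 and 0.30 (now called). Without an expression filter, Dnmt3a with ortho IL-2 was called (0.15) and Tet2 was not (-0.12). Apart from the RPKM divisor's own construction, the causes were not tested.

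The labels do not say whether the replicate numbers pair the libraries. Same-numbered libraries had correlations of -0.66 to 0.44 in their deviations from group means, and not every library correlated best with its own number. With 3 libraries per group the deviations within a group are tied to each other, so these values cannot settle it. With the replicate number as a block, 6 of the 7 genes were called with ortho IL-2 and 4 with WT IL-2, of 5652 and 4788 genes in all. Between ortho and WT IL-2 no alternative called any gene. Small uncalled values changed sign in 8 of 154 refits of the 7 genes with WT IL-2 against no IL-2, in 23 of 154 between ortho and WT IL-2, and in 85 of 638 there for the listed genes. Among the refits of listed genes, 50 lost a call and 5 turned a called sign. Tet1 and Dnmt3b rest on the fewest reads, which limits their precision.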
